A study of Mus musculus with 8 samples.

Results

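Matrix metalloproteinases (MMPs), ADAMTS proteases, the related ADAMTS-like (ADAMTSL) proteins and the tissue inhibitors of metalloproteinases (TIMPs) were examined in cultured mouse lung fibroblasts. Members were every entry of the gene table whose symbol was Mmp, Timp, Adamts or Adamtsl followed by its family number, and the choice used no measured value. The table held 51 such genes among 54532 entries, made up of 23 Mmp, 19 Adamts, 5 Adamtsl and 4 Timp genes. At least 1 read was counted for 48 of them, and 35 passed the filter on low counts and were tested.

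Poly-A RNA was sequenced from primary lung fibroblasts (pFBs) grown out of minced lungs of female mice on a C57 black background. The 4 WT libraries came from wild-type mice and the 4 HOMO libraries from mice homozygous for a human IGFBP5 transgene, placed in the genome with CRISPR/Cas9 and driven by the elongation factor 1a1 promoter. That promoter is active in most cell types and is not specific to fibroblasts. No agent was given to either genotype, all cells were grown in serum, and the age and number of mice are not given in the sources used here. The comparison asked which protease and inhibitor transcripts differ in fibroblasts that carry the human IGFBP5 gene.

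MMPs and ADAMTS proteases are secreted or membrane-anchored zinc enzymes that are made with a blocking prodomain and become active once it is removed. MMPs cut collagens, gelatin, elastin, laminin and growth factor carriers, whereas ADAMTS proteases cut aggrecan and versican or trim procollagens, and ADAMTSL proteins share their matrix-binding domains but have no protease domain. TIMPs bind the active site and block it, and TIMP3 also blocks several ADAMTS proteases. In lung, fibroblasts are a major source of these proteins, and their balance sets how fast the matrix is built and removed.

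Libraries held 17236521 to 31987790 counts. Levels are CPM, counts relative to library size, and all CPM given here were scaled to TMM effective library sizes. The limit that a count of 0 allows, 3 counts, was 0.0908 to 0.172 CPM and covers counting error only. WT1 with WT2, HOMO1 with HOMO2 and HOMO3 with HOMO4 were nearly identical, with a biological coefficient of variation of 4.71% to 7.65% within each pair against 30.0% to 56.4% for other pairs of one genotype. The pairs still differed by more than sampling noise (chi-square per gene 4.03 to 8.14) and were kept as 8 samples, but p-values then measure a spread that may in part be technical. When each near-identical pair was summed to 1 sample, no member and no gene in the table was called by edgeR, although 2057 genes had an unadjusted p under 0.05. The 9 fibroblast markers summed to 12937 to 16618 CPM in WT and 14002 to 24381 CPM in HOMO, led by Col1a1 and Col1a2. Vim was lower in HOMO, at 2589 to 3012 CPM in WT and 1542 to 2126 CPM in HOMO, as was Pdgfrb at 554 to 958 and 288 to 409 CPM. Thy1, at 71.7 to 264 and 22.3 to 112 CPM, overlapped through WT4. Col3a1 (422 to 1245 and 540 to 1791 CPM) and Pdgfra (127 to 392 and 226 to 296 CPM) overlapped as well. So did Dcn (326 to 1350 and 398 to 518 CPM) and Lum (4.07 to 94.1 and 27.9 to 45.8 CPM). The 8 macrophage markers summed to 131, 160, 1971 and 1151 CPM in WT1 to WT4 and to 58.0, 61.8, 169 and 194 CPM in HOMO1 to HOMO4. Smooth muscle and pericyte markers summed to 34.5, 30.5, 289 and 93.6 CPM in WT and 9.50, 8.17, 89.7 and 90.6 CPM in HOMO, and mesothelial markers to 23.1, 24.4, 231 and 147 CPM in WT and 149.7, 150.1, 104 and 114 CPM in HOMO. Epithelial markers summed to 1.43 to 35.8 CPM and endothelial markers to 1.33 to 4.22 CPM over the 8 libraries. Markers of T and B cells were at or under 3 counts in every library. In bulk RNA, fewer cells of a type and less RNA per cell cannot be told apart.

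In HOMO pFBs, Adamts9 and Adamts3 were higher than in WT, and Mmp15, Timp1, Adamtsl3 and Adamtsl4 were lower. These were the 6 members called by edgeR's quasi-likelihood test, at a Benjamini-Hochberg adjusted p under 0.05 over all 14150 tested genes and an absolute log2 fold change above 0.6. They made up 17.1% of the 35 tested members, against 12.1% of all tested genes. The 2 higher members were 5.71% of those tested (5.94% of all genes), and the 4 lower members were 11.4% (6.18% of all genes). An unadjusted p under 0.05 was found for 13 members, or 37.1%, against 32.3% of all genes. Of the 35 fold changes 15 were above 0 and 20 below, with a median of −0.11 on the log2 scale against −0.04 over all tested genes. The median absolute log2 fold change was 0.74 for the members and 0.41 for all tested genes. By family, 0 of 16 tested MMPs were called higher and 1 lower, 2 of 12 ADAMTS proteases higher and 0 lower, 0 of 4 ADAMTSL genes higher and 2 lower, and 0 of 3 TIMPs higher and 1 lower. The other 29 members had adjusted p-values between 0.0515 and 0.912 in edgeR. DESeq2, fitted without the count filter, called 4 members higher and 8 lower of the 48 with a count. It called 10.7% of all 27324 genes with a count, of which only 14150 passed the filter. That share is therefore not comparable with the 35 tested members. Limma-voom with sample weights called 11 of the 35 tested members higher and 8 lower (25.3% of all tested genes).

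**Figure D1:**
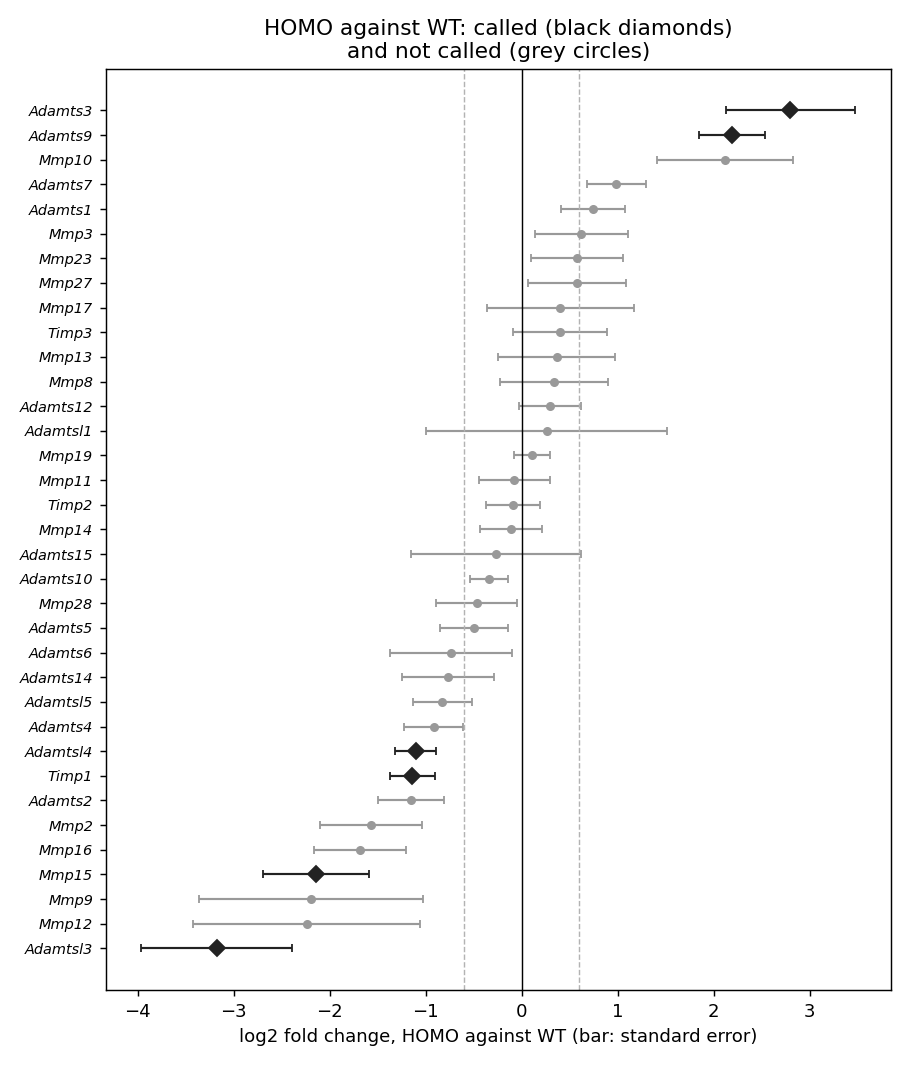
Each row is 1 of the 35 tested members, the horizontal axis is the log2 fold change of HOMO against WT from edgeR, and bars are standard errors. The 6 called members are black diamonds, Adamts3 (2.80) and Adamts9 (2.19) to the right of 0 and Adamtsl3 (−3.18), Mmp15 (−2.14), Timp1 (−1.14) and Adamtsl4 (−1.11) to the left.

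**Figure D2:**
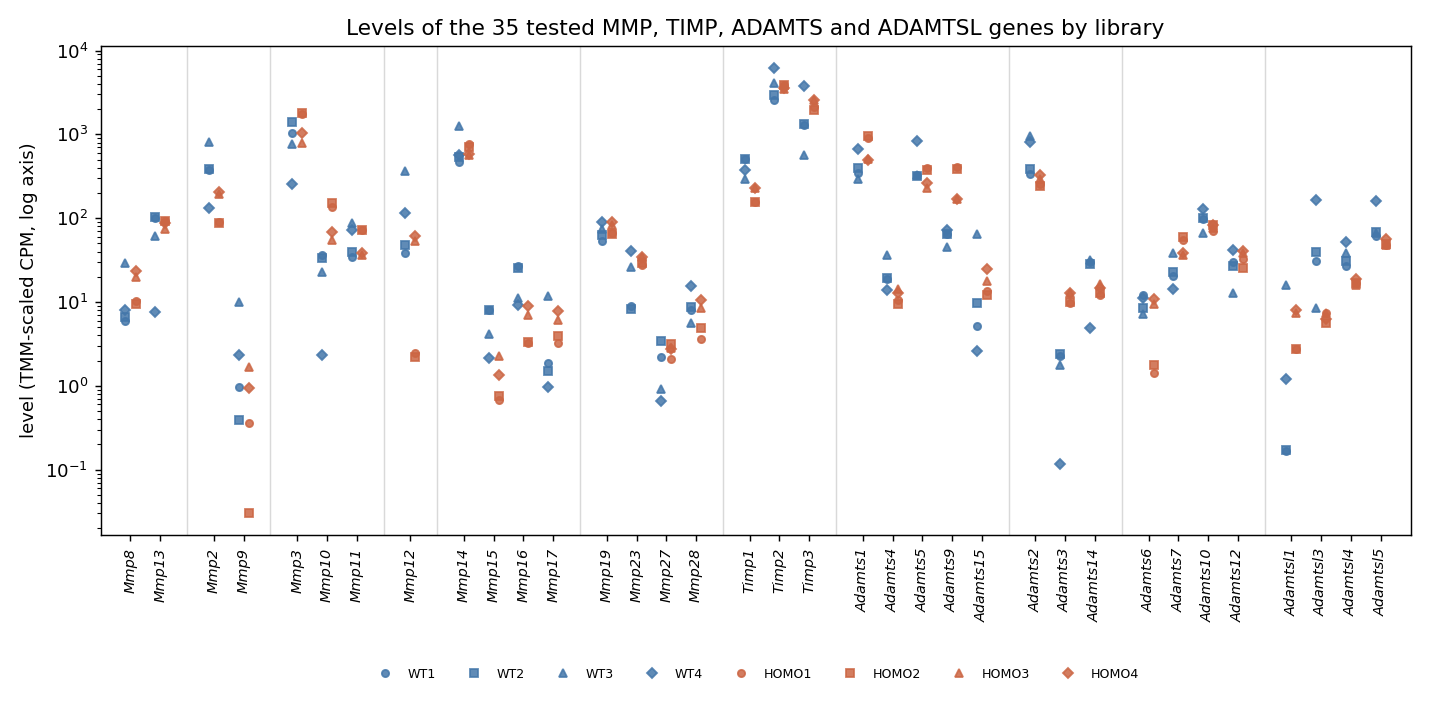
The level of each tested member in every library is plotted on a log axis in TMM-scaled CPM, with WT in blue and HOMO in orange and a marker shape for each library. The spread of the 4 WT points exceeds that of the 4 HOMO points for Mmp2, Timp3 and Adamtsl3, and the genotypes are apart for Adamts9, Adamts3 and Timp1.

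Per kilobase of exon, which allows genes to be compared, the family was led by an inhibitor. Timp2, which blocks MMPs and also takes part in the activation of the MMP2 zymogen, averaged 981 CPM per kb over the 8 libraries. It was followed by Mmp3 at 615, Timp1 at 347, Timp3 at 247, Mmp14 at 115, Adamts1 at 107 and Mmp2 at 84.6 CPM per kb. Adamts2 at 48.0, Mmp10 at 36.9 and Adamts5 at 35.6 CPM per kb completed the first 10. Of these 10 genes, Timp1 alone was called between genotypes, near the 12.1% called of all tested genes. In WT alone Mmp2 (127 CPM per kb) was above Mmp14 (119) and Adamts1 (80.4). In HOMO alone Timp3 (282) was above Timp1 (216), Adamts1 (134) above Mmp14 (110.2), and Mmp10 (59.9) above Mmp2 (42.6). Means are given ± SD with n = 4 libraries for each genotype.

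Timp1, on chromosome X (GRCm38, 20870166 to 20874735, plus strand), encodes a soluble inhibitor that is induced by serum and growth factors and blocks most secreted MMPs. It was measured at 514, 507, 294 and 379 CPM in WT1 to WT4 and at 155, 156, 229 and 227 CPM in HOMO1 to HOMO4. Every HOMO library lay below every WT library, and WT3 was the lowest of the WT libraries. Timp1 fell from 423.5 ± 107 to 192 ± 42.1 CPM, a 2.21-fold lower level (log2 fold change −1.14, SE 0.23, adjusted p = 0.0182 in edgeR). Without HOMO1 or HOMO2 the edgeR adjusted p was 0.0692 or 0.0714. Timp1 was called in 13 of 18 alternatives, and not without HOMO1 and HOMO2 together.

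The other TIMPs did not pass the test. Timp2 (chromosome 11, 118301069 to 118355740, minus strand) was measured at 2599, 2932, 4063 and 6162 CPM in WT and at 3890.3, 3842, 3507 and 3581 CPM in HOMO (log2 fold change −0.09, SE 0.28, edgeR adjusted p = 0.860). The HOMO libraries sat inside the WT range, and without WT4 the log2 fold change was 0.21. Timp3 (chromosome 10, 86300372 to 86349506, plus strand), whose product stays bound to the matrix, was at 1294, 1345, 565 and 3738 CPM in WT and 2098, 1971, 2559 and 2543 CPM in HOMO (0.40, SE 0.49, edgeR adjusted p = 0.607). WT3 and WT4 were the lowest and highest of all 8 libraries for Timp3, and without WT4 the log2 fold change was 1.10 (edgeR adjusted p = 0.0555). Exons of Syn3 on the opposite strand cover 21.3% of Timp3 exon bases, and Syn3 itself had 13 to 139 counts. Timp4 had 2, 0, 4 and 0 counts in WT and 6, 2, 1 and 8 in HOMO, too few for the fit.

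The makeup of the inhibitor pool per kb differed among WT libraries. Timp1 accounted for 41.2%, 38.4%, 22.9% and 17.3% of summed TIMP CPM per kb in WT1 to WT4 and for 12.2%, 12.6%, 17.5% and 17.2% in HOMO1 to HOMO4. The lowest WT share, in WT4, lay below 1 HOMO share, so the genotypes overlapped. Summed TIMP CPM per kb was 1405, 1489, 1443 and 2467 in WT and 1430.3, 1404, 1473 and 1488 in HOMO, with WT4 apart from the other 7 libraries. The ratio of summed MMP to summed TIMP CPM per kb was 0.621, 0.743, 0.733 and 0.152 in WT and 0.914, 0.942, 0.490 and 0.601 in HOMO, again overlapping.

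**Figure D3:**
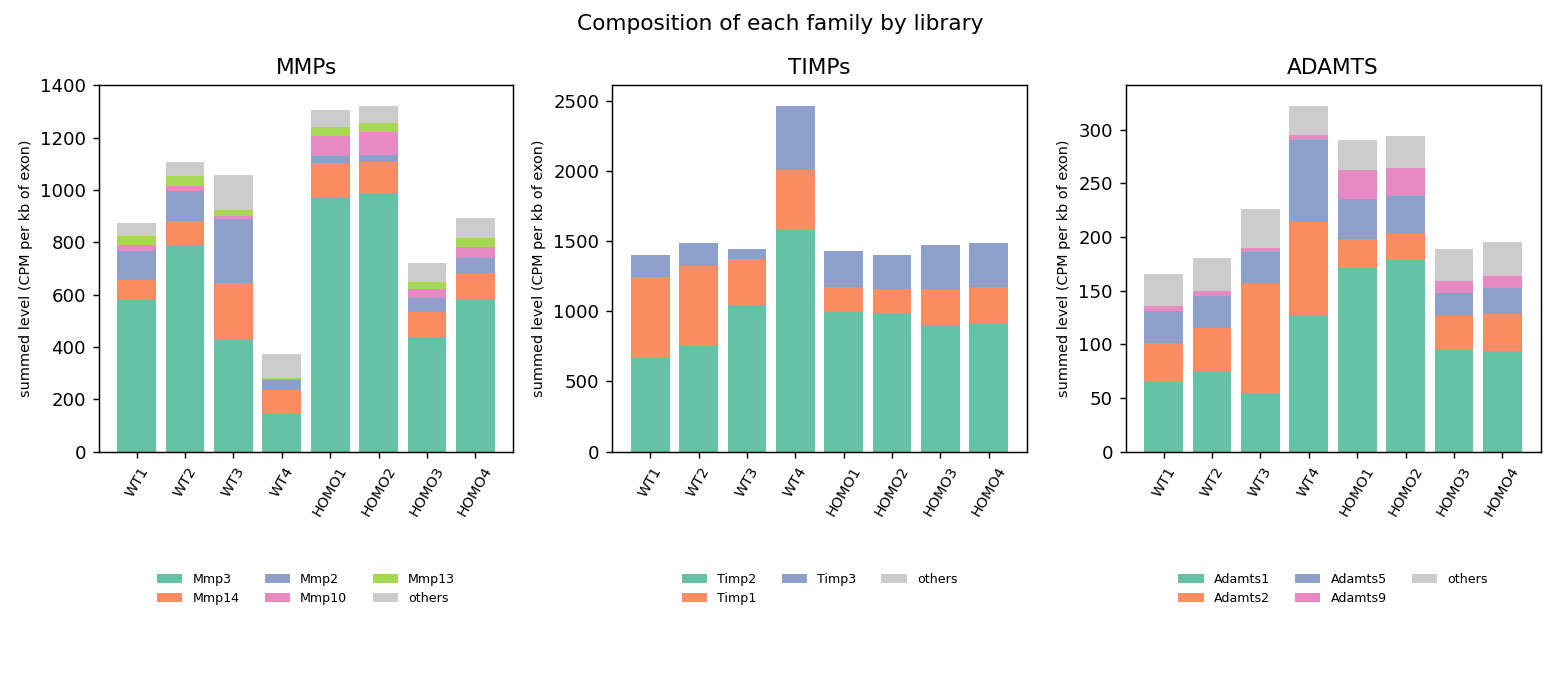
Stacked bars give, for each library, the summed level of a family in CPM per kb of exon, split by its leading genes. Mmp3 is the largest MMP segment in every library (38.1% to 74.7% of the MMP sum), and the Timp1 segment is between 17.3% and 41.2% of the TIMP sum in WT and between 12.2% and 17.5% in HOMO.

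Stromelysins cut proteoglycans, laminin and fibronectin, and MMP3 also activates other MMP zymogens. Mmp3 and Mmp10 lie in a cluster of 10 MMP genes on chromosome 9 with Mmp1a, Mmp1b, Mmp7, Mmp8, Mmp12, Mmp13, Mmp20 and Mmp27. Promoters of 36 members were found in RefSeq (GRCm38.p6). The 250 bases before the start are shown for the 3 cluster genes with the highest levels per kb, because the same short motifs occur in each. Capitals mark TGANTCA, the core bound by AP-1, and TATAAA, the letters of the TATA box, each searched on both strands. The windows were chr9:7445572-7445821 for Mmp3, chr9:7502092-7502341 for Mmp10 and chr9:7272264-7272513 for Mmp13, all on the plus strand.
Mmp3: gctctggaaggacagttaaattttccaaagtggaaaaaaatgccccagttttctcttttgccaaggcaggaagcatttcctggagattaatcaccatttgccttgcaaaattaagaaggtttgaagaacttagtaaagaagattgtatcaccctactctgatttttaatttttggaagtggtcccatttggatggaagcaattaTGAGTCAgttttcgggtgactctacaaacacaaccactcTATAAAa
Mmp10: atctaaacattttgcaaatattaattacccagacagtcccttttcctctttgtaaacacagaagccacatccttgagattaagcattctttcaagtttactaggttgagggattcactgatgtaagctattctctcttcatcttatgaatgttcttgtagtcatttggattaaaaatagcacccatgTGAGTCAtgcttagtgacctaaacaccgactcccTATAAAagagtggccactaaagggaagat
Mmp13: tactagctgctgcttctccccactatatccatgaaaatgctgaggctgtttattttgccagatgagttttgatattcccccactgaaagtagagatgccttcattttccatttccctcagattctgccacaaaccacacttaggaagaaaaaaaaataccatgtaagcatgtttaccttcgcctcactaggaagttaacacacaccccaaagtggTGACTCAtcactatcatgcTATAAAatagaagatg

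The AP-1 motif began 46 bases before the start in Mmp3, 63 in Mmp10 and 35 in Mmp13. TATAAA followed it in all of them and began 7, 29 and 16 bases before the start, so the positions relative to the annotated start differed among the genes. Where transcription begins in these cells was not measured. TGANTCA was found in 8 of the 10 cluster genes (80.0%) and in 8 of 18 MMP genes with a promoter in the table (44.4%). It was found in 0 of 10 ADAMTS, 0 of 4 ADAMTSL and 0 of 4 TIMP genes, and, counting any promoter of a gene, in 7.82% of the 27025 RefSeq genes with windows of the same length. TATAAA was present in 7 of the 10 cluster genes and in 14.3% of all genes. The windows of Mmp8 and Mmp27 held no TGANTCA. A match describes letters in a window and not a bound site.

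Mmp10 (chromosome 9, 7502352 to 7510240, plus strand), which encodes stromelysin-2, was higher in every HOMO library but was not called. It was measured at 36.2, 33.8, 22.7 and 2.36 CPM in WT and at 136, 152, 55.0 and 69.3 CPM in HOMO. All HOMO libraries lay above all WT libraries, with WT4 far below the rest. The means were 23.8 ± 15.5 and 103 ± 48.1 CPM (log2 fold change 2.12, SE 0.71, edgeR adjusted p = 0.0795). Without WT4 the difference was smaller and passed the threshold in edgeR (1.74, adjusted p = 0.0321), and DESeq2 on all 8 libraries gave an adjusted p of 0.00953. It was called in 4 of 18 alternatives in all.

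The neighbouring Mmp3 (7445822 to 7455975), which encodes stromelysin-1, was at 1043, 1421, 777 and 256.5 CPM in WT and 1754, 1779.9, 787 and 1050.4 CPM in HOMO. WT3 and WT4 gave the lowest values among all 8 libraries, and the genotypes overlapped (log2 fold change 0.62, SE 0.48, edgeR adjusted p = 0.410). Mmp13 (7272514 to 7283331), a collagenase, was at 99.97, 103, 61.3 and 7.51 CPM in WT and 93.1, 93.8, 74.0 and 88.4 CPM in HOMO (0.36, SE 0.61, edgeR adjusted p = 0.717). For Mmp13 too, WT4 alone was far below the other 7 libraries. WT4 was thus the lowest library for Mmp3, Mmp10 and Mmp13 alike. None of the 6 tested cluster genes was called, and 1, Mmp10, had genotypes that did not overlap. Of all tested genes 12.1% were called and 27.3% did not overlap, so such counts in 6 genes do not set the cluster apart.

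Mmp8, the neutrophil collagenase, was measured at 5.96 to 29.2 CPM in WT and 9.50 to 23.3 CPM in HOMO (log2 fold change 0.33, and 1.18 without WT3). The 5 neutrophil markers summed to no more than 0.516 CPM in any library, with S100a9, Ly6g and Mpo at or under 3 counts. Mmp27 was at 1.81 ± 1.30 CPM in WT and 2.70 ± 0.433 in HOMO. Mmp1a and Mmp1b, rodent relatives of interstitial collagenase, had no more than 5 and 11 counts in any library, and as close copies they may share reads. The Mmp1b counts were 11, 7, 0 and 0 in WT and 0 in every HOMO library, at least 1.74-fold lower against a floor of 3 counts per library (two-sided exact permutation p = 0.429). Exons of Mmp12 on the opposite strand cover 10.8% of its exon bases. Mmp7 and Mmp20 had 1 count each in all. Outside the cluster, Mmp11, stromelysin-3, was at 58.2 ± 25.9 CPM in WT and 55.0 ± 20.4 CPM in HOMO (log2 fold change −0.08, SE 0.37, edgeR adjusted p = 0.908).

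**Figure D4:**
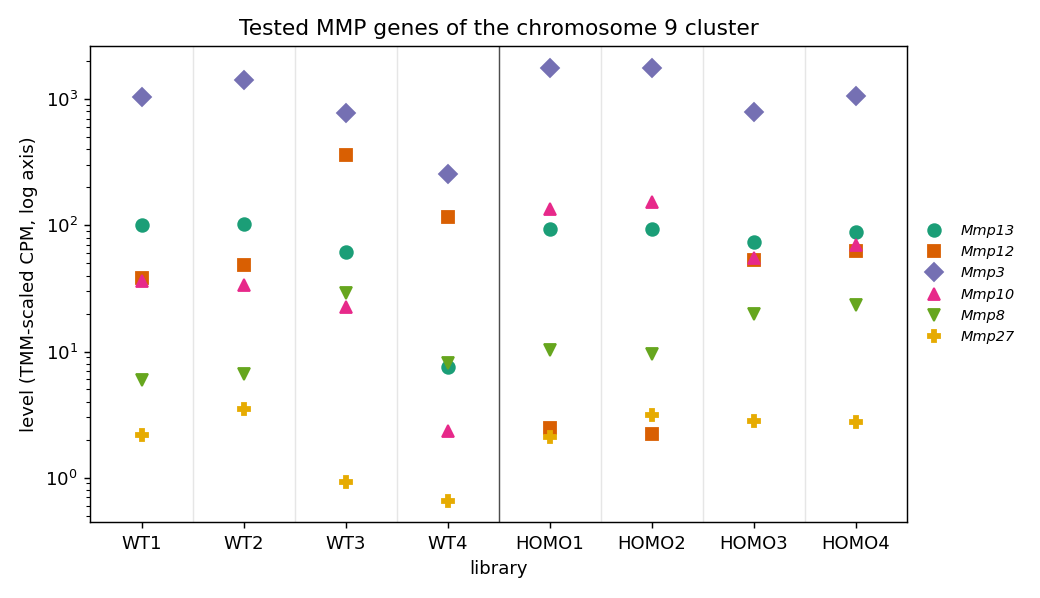
The level of the 6 tested MMP genes of the chromosome 9 cluster is plotted on a log axis in TMM-scaled CPM for each library. Mmp3 is highest in every library, and Mmp10 lies between 2.36 and 36.2 CPM in WT and between 55.0 and 152 CPM in HOMO.

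Mmp12 (chromosome 9, 7344381 to 7369499, plus strand) encodes the macrophage metalloelastase, an enzyme known from lung macrophages. It was measured at 38.3, 48.1, 363 and 116 CPM in WT and at 2.50, 2.24, 52.9 and 62.1 CPM in HOMO. WT3 was highest, HOMO1 and HOMO2 were lowest, and the genotypes overlapped through HOMO3 and HOMO4. The means of 141 ± 152 and 29.9 ± 32.03 CPM did not pass the test (log2 fold change −2.24, SE 1.18, edgeR adjusted p = 0.223), and without WT3 the log2 fold change was −1.18. The summed macrophage markers were likewise highest in WT3 (1971 CPM) and lowest in HOMO1 and HOMO2 (58.0 and 61.8 CPM). Lyz2 alone gave 1707 of the 1971 CPM in WT3, and the other 7 markers summed to 43.8, 47.1, 264 and 239 CPM in WT and 43.5, 48.95, 83.1 and 87.5 CPM in HOMO. Adgre1, Csf1r and Ptprc were higher in WT4 than in WT3, and Cd14 was higher in every HOMO library than in WT1, WT2 and WT4. Smooth muscle and pericyte markers were also highest in WT3 and lowest in HOMO1 and HOMO2. The part of these cells in the Mmp12 values was not tested. All 8 markers of that list passed the count filter, and none was at 0 in any library. Mmp9, a gelatinase also known from macrophages and neutrophils, was measured at 0.956, 0.386, 9.98 and 2.32 CPM in WT and 0.357, 0.0303, 1.67 and 0.952 CPM in HOMO (−2.20, SE 1.17, edgeR adjusted p = 0.228). WT3 was again the highest library, and without it the log2 fold change was −0.74.

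**Figure D5:**
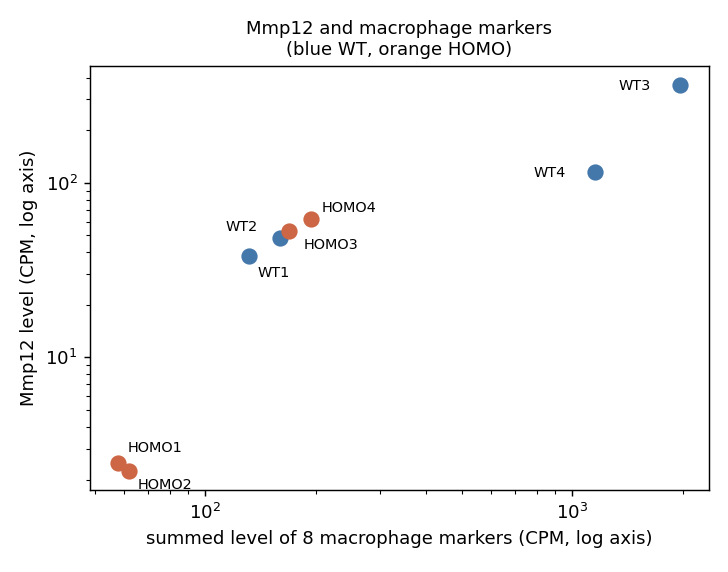
Each point is 1 library, with the summed level of the 8 macrophage markers on the horizontal axis and the Mmp12 level on the vertical axis, both in CPM on log axes. WT3 is at 1971 and 363 CPM (1707 of the marker CPM from Lyz2), HOMO1 and HOMO2 are at the lower left, and several libraries are near-identical pairs, so the points are not independent.

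Mmp2 (chromosome 8, 92827291 to 92853420, plus strand), the gelatinase that fibroblasts secrete, was at 372, 387, 817 and 131 CPM in WT and at 91.1, 86.8, 193 and 204 CPM in HOMO. WT4 lay within the HOMO range and WT3 was the highest. The level was 427 ± 285 CPM in WT and 144 ± 63.4 CPM in HOMO, which did not pass (log2 fold change −1.57, SE 0.53, edgeR adjusted p = 0.0820). Without WT4 it passed in edgeR (−1.87, adjusted p = 0.0305), and DESeq2 on all 8 libraries gave an adjusted p of 0.0166. Without WT3 it was −1.05 (edgeR adjusted p = 0.146), and Mmp2 was called in 4 of 18 alternatives. Mmp2 made up 12.6%, 10.4%, 22.9% and 10.4% of summed MMP CPM per kb in WT and 2.07%, 1.95%, 7.93% and 6.77% in HOMO, with no overlap between genotypes. The share of Mmp3 was 66.3%, 71.3%, 40.8% and 38.1% in WT and 74.5%, 74.7%, 60.6% and 65.3% in HOMO, where the genotypes overlapped.

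Membrane-type MMPs work at the cell surface, and MMP14, MMP15 and MMP16 can activate the MMP2 zymogen. Mmp15 (chromosome 8, 95352268 to 95375080, plus strand) was the only MMP called. It was measured at 7.93, 7.98, 4.19 and 2.17 CPM in WT and at 0.669, 0.756, 2.28 and 1.35 CPM in HOMO. WT4 lay just below HOMO3, so the genotypes overlapped by this pair of libraries. Mmp15 fell from 5.57 ± 2.88 to 1.26 ± 0.743 CPM, a 4.41-fold lower level (log2 fold change −2.14, SE 0.55, adjusted p = 0.0373 in edgeR). Leaving out WT1, WT2, HOMO1, HOMO2 or HOMO4 gave edgeR adjusted p-values of 0.0711, 0.0776, 0.114, 0.117 and 0.0857. Without WT1 and WT2 together the log2 fold change was −1.33 (edgeR adjusted p = 0.136). Without HOMO1 and HOMO2 together it was −1.60 (edgeR adjusted p = 0.348). Mmp15 was called in 8 of 18 alternatives. The median log2 fold change of all tested genes on chromosome 8, where Mmp2 and Mmp15 lie, was 0.37. Whether this bears on the 2 genes was not tested.

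Mmp16 (chromosome 4, 17852893 to 18119145, plus strand) was at 27.2, 25.2, 11.02 and 9.33 CPM in WT and 3.21, 3.36, 6.99 and 9.07 CPM in HOMO. Every HOMO library was below every WT library, though WT4 and HOMO4 nearly met. The means were 18.2 ± 9.30 and 5.66 ± 2.87 CPM, with an adjusted p just above the threshold (log2 fold change −1.69, SE 0.48, edgeR adjusted p = 0.0515). It was called in 6 of 18 alternatives, among them DESeq2 (adjusted p = 0.00473), edgeR with DESeq2-style size factors (0.0498), and edgeR without WT3 (0.0384) or without WT4 (0.0376). Mmp14 (chromosome 14, 54431612 to 54445364, plus strand), the most abundant membrane-type member, was at 463, 542, 1276 and 560.0 CPM in WT and 762, 716, 565 and 585 CPM in HOMO (−0.11, SE 0.32, edgeR adjusted p = 0.842). Only WT3 stood apart for Mmp14. Mmp17, anchored by a lipid tail, was at 1.86, 1.501, 11.7 and 0.968 CPM in WT and 3.25, 3.90, 6.08 and 7.87 CPM in HOMO (0.40, SE 0.77, edgeR adjusted p = 0.755). WT3 decided that value, since without it Mmp17 was called higher in edgeR (1.87, adjusted p = 0.0206). DESeq2 on all libraries did not call Mmp17 (adjusted p = 0.753), and it was called in 3 of 18 alternatives.

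Mmp24 had 1, 6, 1 and 8 counts in WT and 7, 11, 6 and 13 in HOMO, with a two-sided exact permutation p of 0.0571 on TMM-scaled CPM, where 0.0286 is the smallest that 70 assignments allow. On unscaled library totals the exact permutation p reached 0.0286. Both permutations count near-identical libraries as separate samples, so these p-values may be too small. Mmp19, Mmp23 and Mmp28, of the remaining MMPs, did not pass the test. Mmp19 was at 69.9 ± 15.3 CPM in WT and 75.5 ± 12.1 CPM in HOMO (log2 fold change 0.11, SE 0.19, edgeR adjusted p = 0.724), Mmp23 at 20.9 ± 15.4 and 31.2 ± 3.52 CPM, and Mmp28 at 9.48 ± 4.35 and 6.87 ± 3.17 CPM.

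ADAMTS proteases that cut aggrecan and versican included the member with the smallest adjusted p. Adamts9 (chromosome 6, 92772699 to 92943492, minus strand) encodes a versican-cleaving protease of the pericellular matrix. It was measured at 65.1, 65.3, 45.8 and 72.6 CPM in WT and at 405, 391, 169.7 and 167 CPM in HOMO. All HOMO libraries were above all WT libraries, and HOMO1 and HOMO2 were higher than HOMO3 and HOMO4. Adamts9 rose from 62.2 ± 11.5 to 283 ± 133 CPM, 4.55-fold (log2 fold change 2.19, SE 0.34, adjusted p = 0.00789 in edgeR), and was called in edgeR whichever single library was left out. Without HOMO1 and HOMO2 together it was 1.45 with an edgeR adjusted p of 0.0566. Adamts9 was called in 16 of 18 alternatives. Exons of A730049H05Rik and Gm15737 on the opposite strand cover 11.995% of its exon bases, and the library kit did not keep strand. A730049H05Rik had 12, 26, 98 and 5 counts in WT and 153, 189, 49 and 64 in HOMO.

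Adamts1 (chromosome 16, 85793827 to 85803113, minus strand), which cuts versican and aggrecan, was at 344, 396, 290.5 and 673 CPM in WT and 908, 946, 502 and 495 CPM in HOMO. WT4 lay above HOMO3 and HOMO4 (log2 fold change 0.74, SE 0.33, edgeR adjusted p = 0.159). Its neighbour Adamts5 (85856173 to 85901828, minus strand), the main aggrecanase of mouse cartilage, was at 323, 322, 328 and 825 CPM in WT and 402, 372, 232 and 265 CPM in HOMO (−0.50, SE 0.35, edgeR adjusted p = 0.359). WT4 again stood apart. Adamts4 was at 22.2 ± 10.01 CPM in WT and 11.8 ± 2.27 CPM in HOMO (−0.92, SE 0.31, edgeR adjusted p = 0.0814). It was called lower in edgeR without WT4 (−1.09, adjusted p = 0.0429) and by DESeq2 on all libraries (adjusted p = 0.0369). In all, Adamts4 was called in 4 of 18 alternatives. Adamts15 was at 5.12, 9.82, 65.0 and 2.59 CPM in WT and 13.4, 12.1, 17.8 and 25.1 CPM in HOMO, so that only WT3 lay above the HOMO libraries (−0.27, SE 0.88, edgeR adjusted p = 0.866). Without WT3 its log2 fold change was 1.55.

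Adamts1 made up 39.3%, 41.4%, 24.2% and 39.4% of summed ADAMTS CPM per kb in WT and 58.9%, 60.6%, 50.1% and 47.8% in HOMO. Adamts9 made up 2.61%, 2.41%, 1.35% and 1.496% in WT and 9.25%, 8.83%, 5.97% and 5.70% in HOMO. Both shares were higher in every HOMO library than in any WT library. The share of Adamts2 was 21.8%, 22.7%, 44.8% and 26.9% in WT and 9.36%, 8.77%, 16.6% and 17.8% in HOMO, lower in every HOMO library.

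ADAMTS2, ADAMTS3 and ADAMTS14 remove the amino-terminal propeptide of fibrillar procollagens, and ADAMTS3 also activates the lymphatic growth factor VEGF-C. Adamts3 (chromosome 5, 89677087 to 89883334, minus strand) was measured at 2.25, 2.40, 1.78 and 0.116 CPM in WT and at 9.63, 9.92, 12.9 and 13.0 CPM in HOMO. The HOMO libraries were close to each other and all above WT, and WT4 was near the level of a few reads. Adamts3 rose from 1.64 ± 1.05 to 11.4 ± 1.82 CPM, 6.96-fold (log2 fold change 2.80, SE 0.67, adjusted p = 0.0310 in edgeR). The edgeR adjusted p was 0.0514 without WT2, 0.0787 without HOMO1, 0.0807 without HOMO2, 0.0679 without HOMO3 and 0.0688 without HOMO4. Adamts3 was called in 9 of 18 alternatives, and not without HOMO1 and HOMO2 together or HOMO3 and HOMO4 together.

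Adamts2 (chromosome 11, 50602084 to 50807573, plus strand) was at 336, 382, 946 and 811 CPM in WT and 254, 241, 293 and 324 CPM in HOMO. Every HOMO library was below every WT library, by a small margin between HOMO4 and WT1. The means were 619 ± 305 and 278 ± 37.9 CPM (log2 fold change −1.15, SE 0.34, edgeR adjusted p = 0.0565), and without WT1 or without WT2 the edgeR adjusted p was 0.0339 or 0.0494. DESeq2 on all libraries called it (adjusted p = 0.0122). Leaving out any other single library gave no call (edgeR adjusted p up to 0.159), and Adamts2 was called in 4 of 18 alternatives. Adamts14 was at 30.3, 28.7, 31.6 and 4.88 CPM in WT and 12.2, 12.9, 16.3 and 14.6 CPM in HOMO (−0.77, SE 0.48, edgeR adjusted p = 0.303). WT4 alone lay below HOMO, and without it Adamts14 was called lower in edgeR (−1.11, adjusted p = 0.00691). DESeq2 on all libraries did not call Adamts14 (adjusted p = 0.282), and it was called in 3 of 18 alternatives.

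None of the 4 tested genes among the other ADAMTS proteases was called (12.1% of all tested genes were). Adamts7, which cuts cartilage oligomeric matrix protein, was at 20.6, 22.5, 38.1 and 14.4 CPM in WT and 54.6, 60.1, 36.6 and 38.0 CPM in HOMO (log2 fold change 0.99, SE 0.31, edgeR adjusted p = 0.0657). WT3 lay at the level of HOMO3 and HOMO4, and without WT3 Adamts7 was called higher in edgeR (1.30, adjusted p = 0.0131), as it was by DESeq2 on all libraries (adjusted p = 0.0238). In all, Adamts7 was called in 4 of 18 alternatives. Adamts6 was at 12.2, 8.58, 7.23 and 11.1 CPM in WT and 1.43, 1.79, 9.43 and 10.9 CPM in HOMO, where HOMO1 and HOMO2 were low and HOMO3 and HOMO4 lay within the WT range. Adamts10, which binds fibrillin, was at 99.0 ± 26.4 and 78.1 ± 5.55 CPM, and Adamts12 at 28.0 ± 11.9 and 34.3 ± 6.56 CPM in WT and HOMO.

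ADAMTS-like proteins have no catalytic domain and bind fibrillin microfibrils. Adamtsl4 (chromosome 3, 95676201 to 95687917, minus strand), a fibrillin-binding protein known from the lens zonule, was measured at 26.7, 30.6, 38.5 and 52.5 CPM in WT and at 17.1, 16.7, 16.2 and 19.0 CPM in HOMO. No HOMO library reached the lowest WT library. It fell from 37.1 ± 11.4 to 17.2 ± 1.23 CPM, 2.15-fold lower (log2 fold change −1.11, SE 0.22, adjusted p = 0.0159 in edgeR). Without HOMO1 or HOMO2 the edgeR adjusted p was 0.0613 or 0.0633. Adamtsl4 was called in 13 of 18 alternatives, and not without HOMO1 and HOMO2 together or HOMO3 and HOMO4 together. The median log2 fold change of tested genes on chromosome 3 was −0.23. WT3 lay a median of 0.35 above the other WT libraries on that chromosome in log2 CPM. Whether this bears on Adamtsl4 was not tested.

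Adamtsl3 (chromosome 7, 82335694 to 82614450, plus strand) was at 30.9, 39.3, 8.38 and 164 CPM in WT and at 7.49, 5.597, 7.35 and 6.32 CPM in HOMO. The HOMO libraries were tightly grouped below WT, whereas WT3 was just above them and WT4 was far higher than the rest. Adamtsl3 fell from 60.5 ± 69.9 to 6.69 ± 0.896 CPM, 9.06-fold lower (log2 fold change −3.18, SE 0.78, adjusted p = 0.0331 in edgeR). WT4 carried much of the size, since without it the log2 fold change was −1.97 (edgeR adjusted p = 0.0328). Without HOMO1, HOMO2, HOMO3 or HOMO4 the edgeR adjusted p was 0.1001, 0.109, 0.0761 or 0.0814. Adamtsl3 was called in 10 of 18 alternatives, and not without HOMO1 and HOMO2 together or HOMO3 and HOMO4 together. The median log2 fold change of tested genes on chromosome 7 was −0.29. WT3 lay a median of 0.36 above the other WT libraries on that chromosome in log2 CPM. Whether this bears on Adamtsl3 was not tested.

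Adamtsl5 (chromosome 10, 80339110 to 80348412, minus strand) was at 61.8, 68.2, 66.1 and 160.4 CPM in WT and 47.6, 49.3, 47.7 and 56.2 CPM in HOMO. The genotypes did not overlap and WT4 stood above the rest, yet the gene was not called (log2 fold change −0.83, SE 0.31, edgeR adjusted p = 0.106). Adamtsl1 was at 0.169, 0.172, 16.1 and 1.2001 CPM in WT and 2.72, 2.75, 7.45 and 8.12 CPM in HOMO (0.26, SE 1.25, edgeR adjusted p = 0.912). WT3 was the highest and the other WT libraries the lowest of the 8, and without WT3 the gene was called higher in edgeR (3.29, adjusted p = 0.0338). DESeq2 on all libraries did not call Adamtsl1 (adjusted p = 0.925). It was called in 3 of 18 alternatives and turned its direction in 6 of the 18. Adamtsl2, which binds fibrillin and the latent TGF-β complex, was outside the fit with 1, 0, 740 and 27 counts in WT and 0, 2, 3 and 0 counts in HOMO. Nearly all of its reads came from WT3, and its mean was at least 82.7-fold lower in HOMO against a floor of 3 counts per library, with a two-sided exact permutation p of 0.343.

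Summed ADAMTSL CPM per kb was 23.5, 26.8, 30.8 and 67.8 in WT and 15.3, 15.4, 15.5 and 17.9 in HOMO. Every HOMO library was below every WT library. Over all tested members, 9 had genotypes that did not overlap (25.7%, against 27.3% of all tested genes). In 3 of them HOMO was higher (14.0% of all tested genes), namely Mmp10, Adamts9 and Adamts3, and in 6 HOMO was lower (13.4% of all tested genes), namely Mmp16, Timp1, Adamts2, Adamtsl3, Adamtsl4 and Adamtsl5.

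Of the 16 members outside the fit, 13 had at least 1 count, and Mmp21, Adamts18 and Adamts19 had none. Apart from Adamtsl2, none of the 13 had more than 53 counts over all libraries. Adamts8 had 0, 0, 10 and 2 counts in WT and 4, 3, 1 and 0 in HOMO. Mmp25, Adamts13, Adamts16, Adamts17 and Adamts20 gave exact permutation p-values from 0.371 to 1.00. A difference in these genes was not detectable at this depth.

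A list of 24 genes that activate, inhibit, modify or clear these proteases, or act in the same plasminogen system at the cell surface, was counted in the same fit. Of its 18 tested genes 0 were called higher and 2 lower. Of all tested genes 5.94% were called higher, 6.18% lower and 12.1% in either direction. The list was not tested as a set. Plaur, the receptor of urokinase, fell from 54.2 ± 12.1 to 24.6 ± 8.63 CPM (log2 fold change −1.14, SE 0.27, adjusted p = 0.0298 in edgeR). In edgeR the adjusted p of Plaur was 0.0505 without WT4, 0.0927 without HOMO1, 0.0940 without HOMO2 and 0.0537 without HOMO4. Furin and Pcsk6, proprotein convertases that remove prodomains, and Plau, urokinase, had edgeR adjusted p-values of 0.0576, 0.0576 and 0.0519. Their log2 fold changes were −0.54, −0.66 and −0.71, and each was lower in every HOMO library than in any WT library. Reck, a membrane-anchored inhibitor of MMPs, was at 56.6 ± 47.7 CPM in WT and 28.5 ± 5.34 CPM in HOMO (−0.99, SE 0.50, edgeR adjusted p = 0.204). Over the 18 tested genes the median log2 fold change was −0.39, against −0.04 over all tested genes.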

How the data were processed

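The authors trimmed paired-end NovaSeq reads with fastp, aligned them to mm10 with STAR, counted reads per gene with featureCounts and deposited 1 table of raw counts for 8 libraries. The annotation release and strand setting are not given in the sources used here, and the kit was non-directional. The table's own label says that outliers were taken out, without further detail.

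Genes were filtered with filterByExpr by genotype, scaled with TMM and tested for HOMO against WT with edgeR 4.0.16 (quasi-likelihood F test, limma 3.58.1, R 4.3.3), with Benjamini-Hochberg adjustment over 14150 genes. Genes were called when the adjusted p was below 0.05 and the log2 fold change lay beyond 0.6 in either direction. Standard errors were derived from the F statistic. DESeq2, here in version 1.42.0, was an alternative. The authors also used DESeq2, in a version that is not given. The fit was tested on simulated counts of independent libraries. The simulation held no near-identical pairs, so it cannot show how such pairs affect the p-values. Members outside the fit had a two-sided exact permutation test over 70 assignments, which treats near-identical libraries as separate samples. Positions and exon lengths came from GENCODE M21 (GRCm38), with symbols matched to the table.

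Members, role groups and lists were chosen with earlier results of these data known. Named genes were called members, those with non-overlapping genotypes, the 10 highest per kb, Mmp2, Mmp10, Mmp15, Mmp16 and Timp1 to Timp4, members with a 10-fold range within a genotype, and members outside the fit with the smallest possible p or a genotype mean above 10 counts. Others named had been noticed after their values were seen. The alternatives were other scaling, no count filter, a replicate block, sample weights, summed near-identical libraries, no fold threshold and left-out libraries or pairs. A single gene of the list of activators and inhibitors is counted but not reported here.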

Additional observations from a re-analysis of the deposited data

Results flagged for a closer look

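Among 70 groups of 4 libraries, 4 values stood apart from the other 3 libraries of their genotype by a gap past Dixon's critical value for 4 samples, and all of them belonged to WT4. Among independent values chance flags about 1 in 20 groups, but that rate does not hold here. WT1 with WT2 and the HOMO pairs are near-identical, which leaves mainly WT3 and WT4 able to stand alone. In log2 CPM, Adamts5 was at 9.69 in WT4 against 8.33 to 8.36 in the other WT libraries, and Adamtsl5 was at 7.33 against 5.95 to 6.09. WT4 was low for 2 procollagen-processing genes, Adamts3 at −2.37 against 0.92 to 1.32 and Adamts14 at 2.31 against 4.85 to 4.99. Adamts3 was called in edgeR with and without WT4, whereas Adamts14 was called without WT4 (log2 fold change −1.11, edgeR adjusted p = 0.00691).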

How the results depend on the processing

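As reported, edgeR called 1716 genes, 2 members higher and 4 lower in HOMO, and 2 of the 24 activators and inhibitors. In the same order the counts were 2913, 4, 8 and 5 with DESeq2, and 3573, 11, 8 and 3 with limma-voom and sample weights. With near-identical libraries summed they were 0, 0, 0 and 0 in edgeR, where 2057 genes had an unadjusted p under 0.05. Without WT1 and WT2 they were 3271, 3, 6 and 10, without WT3 and WT4 3117, 8, 8 and 2, without HOMO1 and HOMO2 76, 0, 0 and 0, and without HOMO3 and HOMO4 913, 1, 3 and 2. Leaving out 1 library at a time gave 507 to 2192 genes, 1 to 5 members higher, 0 to 8 lower and 0 to 2 of the list. Another scaling, no count filter and no fold threshold moved none of these counts by over 1.5 times. The labels do not state that equal replicate numbers pair the samples. Deviations of same-numbered libraries correlated at −0.12 to 0.01, against −0.17 to 0.17 for libraries of unequal number. These few values show no pairing but cannot exclude one. A fit with the replicate number as a block called 947 genes, 1 member higher, 1 lower and 2 of the list. Over 18 alternatives, none of the 6 called members turned its direction, and every one lost its call in at least 1 of them. On unscaled library totals 1 member outside the fit, Mmp24, reached the smallest exact permutation p, against 0 with TMM scaling.

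Directions turned only for members that were not called, and the cause was not tested. Log2 fold changes with sample weights were −0.20 for Mmp13, 0.0698 for Mmp9, −0.18 for Mmp3, 0.29 for Mmp11, 0.24 for Mmp14, −0.18 for Mmp27, 0.33 for Timp2 and 1.03 for Adamts15. Without WT3 and WT4 they were −0.22 for Mmp13, 0.14 for Mmp9, 0.59 for Mmp11, 0.39 for Mmp14, −0.0748 for Mmp27, 0.42 for Timp2 and 1.18 for Adamts15. Without WT1 and WT2 they were −0.24 for Mmp8, −0.25 for Mmp17, −0.11 for Mmp19, −0.0893 for Mmp23 and −0.71 for Adamtsl1. Without HOMO3 and HOMO4 they were −0.31 for Mmp8, 0.33 for Mmp11, 0.0728 for Mmp14, −0.13 for Mmp17, −0.0909 for Mmp19 and −0.65 for Adamtsl1. Without HOMO1 and HOMO2 they were 0.00758 for Mmp28, 0.0737 for Adamts15 and 0.0621 for Adamts6. With the replicate block Mmp14 was at 0.0133 and Adamts15 at 0.78, and with summed libraries Adamtsl1 was at −0.11. Leaving out 1 library at a time gave −0.0119 to 0.63 for Mmp13, −0.27 to 0.18 for Mmp11, −0.27 to 0.33 for Mmp14, −0.24 to 0.21 for Timp2, −0.64 to 1.55 for Adamts15 and −0.15 to 3.29 for Adamtsl1.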
